A study of Macaca mulatta with 51 samples.

Results

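DUSP14, RBPMS2, LDHB and FAM131B are 4 of the 16033 genes counted in subcutaneous adipose tissue (AT) and gastrocnemius skeletal muscle (SM) of rhesus macaques treated with FGF21. They were picked because their change from the pre-treatment to the post-treatment time point differed between AT and SM. In a model of both tissues this difference had an adjusted p under 0.05 for 5 of 12322 genes (0.0406%), and the 4 members were the first 4 of the 5. The next gene inside the threshold was SLC38A3, whose change was lower in AT than in SM by 2.93 on the log2 scale (AT minus SM -2.93, SE 0.56, adjusted p 0.0356), and the first gene outside it was TPD52L1 (AT minus SM -1.58, SE 0.32, adjusted p 0.053). Both the number inside and the members among them depended on the animals and the model. The number was 0 without animal 20275, 21189 or 21866 and 1 to 7 without any other animal, of which 0 were members without 22130, 1 without 23004, 2 without 24849, 3 without 20456 or 26292 and 4 otherwise. limma called 24 genes with 2 of the members. Because post- minus pre-treatment values chose the members, their changes are described below without a test.

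The animals were obese, non-diabetic adult macaques, males and ovariectomized females, held on a high-fat, high-sucrose diet. All received native human FGF21 under the skin daily for 12 weeks at rising doses, followed by 16 weeks without treatment. Counts were at hand for 10 AT libraries before treatment, 9 at its end and 8 after washout, and for 6, 8 and 7 SM libraries, from 10 animals in all. No group was left untreated, so the pre-treatment biopsies of the same animals were the control, and time on study and treatment cannot be told apart. The authors report weight loss under treatment and regain during washout, which cannot be told apart from treatment here either. In the files the members have the identifiers ENSG00000275932 (DUSP14), ENSG00000166831 (RBPMS2), ENSG00000111716 (LDHB) and ENSG00000159784 (FAM131B).

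The members belong to separate pathways. DUSP14 encodes a small dual-specificity phosphatase that acts on MAP kinases and on the TAK1 complex, and FGF21 itself signals through FGF receptors and beta-klotho to MAP kinases. RBPMS2 encodes an RNA-binding protein of smooth muscle precursors that is known to act on BMP signaling. LDHB encodes the heart-type subunit of lactate dehydrogenase, the enzyme that interconverts lactate and pyruvate, and is abundant in slow, oxidative muscle fibers, whereas its partner LDHA predominates in fast fibers. FAM131B encodes a protein with no well-established function.

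Total counts per library ranged from 14455195 to 23940980, and each member had at least 43 counts in every library. The part of counting error in the spread between animals was not estimated. Expression is given as CPM (each gene's count scaled to the normalized library total) after TMM normalization within a tissue, unless both tissues are compared. Summed markers of skeletal muscle fibers lay between 45700 and 186000 CPM in SM and did not exceed 435 CPM in AT. The 4 adipocyte markers in the table summed to at least 9440 CPM in AT and at most 1170 CPM in SM. Post-treatment SM libraries stood apart from each other: in animals 20275, 21189, 21866 and 24849 the fiber sum lay at 45700 to 91900 CPM, below every pre-treatment SM library (lowest 111000 CPM). The sum of 8 fibroblast markers lay at 6090 to 25900 CPM in these libraries, against 555 to 6460 CPM pre-treatment. In animal 24849 it was not higher post-treatment (6090 CPM) than pre-treatment (6460 CPM). Library identifiers fell into 3 number series, and only 1 of 6 animals had both its pre- and post-treatment SM libraries in the same series. The first series held 5 of 8 SM libraries post-treatment and 0 of 7 at washout. With the series as a covariate the post- minus pre-treatment changes in SM were 0.42 (SE 0.17) for DUSP14 and 0.671 (SE 0.23) for LDHB.

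In AT, DUSP14 was lower post-treatment and close to its earlier level at washout. CPM of DUSP14 in AT were 24.6 at the lowest, 46.3 at the median and 56.7 at the highest pre-treatment, 11.9, 24.0 and 33.0 post-treatment, and 32.4, 38.8 and 56.1 at washout. The pre- and post-treatment ranges overlapped only through the lowest pre-treatment libraries, and the lowest washout library lay just under the highest post-treatment one. Post-treatment DUSP14 was lower in 9 of 9 animals, by 0.56 to 2.15 on the log2 scale, with a fitted change of -1.07 (SE 0.16). Over all 13367 genes tested in AT, 5.03% were lower in every animal. From post-treatment to washout DUSP14 was higher in 8 of 8 animals (log2 1.0, SE 0.17), and washout minus pre-treatment was -0.07 (SE 0.16). In bulk tissue, fewer cells of a type and less RNA per cell cannot be told apart for this or any other member.

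DUSP14 in SM was low at all time points. Its SM values were 3.24, 5.96 and 6.95 CPM (lowest, median, highest) pre-treatment, 3.53, 5.93 and 12.01 CPM post-treatment, and 3.48, 5.37 and 7.77 CPM at washout. The 3 ranges overlapped widely, and the highest value belonged to the post-treatment library of animal 21189, which also had the lowest fiber sum (45700 CPM) and the highest fibroblast sum (25900 CPM) of all SM libraries. Post-treatment DUSP14 was higher in 4 of 6 animals, with a fitted log2 change of 0.28 (SE 0.18), or 0.18 (SE 0.18) without that library. Over the 21 SM libraries its log2 CPM had an r of -0.59 with the summed fast fiber markers, which became -0.37 without that library; these libraries share animals and depth, and the part of tissue composition in DUSP14 was not tested.

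RBPMS2 was the only member whose AT libraries separated fully between pre- and post-treatment. Its AT values were 66.3, 88.9 and 125 CPM (lowest, median, highest) pre-treatment, 11.7, 27.8 and 57.1 CPM post-treatment, and 77.2, 101 and 153 CPM at washout. Every pre-treatment AT library therefore lay above every post-treatment one, as was found for 9 of 13367 genes (0.0673%), and every washout library lay above every post-treatment one (1.68% of genes). The fitted post- minus pre-treatment change was -1.66 (SE 0.24), or 0.317 times the earlier level, with animal 20275 lowest at -3.25 and animal 20261 nearest to no change at -0.73. Washout minus post-treatment was 1.85 (SE 0.25), higher in 8 of 8 animals, and washout minus pre-treatment 0.19 (SE 0.24), higher in 5 of 8.

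In SM, RBPMS2 was low at all time points. CPM of RBPMS2 in SM were 4.71, 5.92 and 8.87 (lowest, median, highest) pre-treatment, 3.68, 6.56 and 10.6 post-treatment, and 2.94, 6.53 and 7.08 at washout. All 3 ranges overlapped, and the changes within 6 animals from pre- to post-treatment lay between -0.32 and 0.26, with 3 higher and 3 lower. The fitted change of 0.04 (SE 0.18) had no stable sign, since it lay between -0.00325 and 0.143 under other models and scalings. Its 6 within-animal SM changes had an SD of 0.225, against 0.886 over the 9 changes in AT.

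LDHB in AT took the same course as DUSP14, with a wider spread between animals (SD of log2 CPM within time points 0.646, against 0.416 for DUSP14). Its AT values were 37.6, 112 and 140.2 CPM (lowest, median, highest) pre-treatment, 19.1, 66.1 and 91.6 CPM post-treatment, and 32.9, 85.6 and 164 CPM at washout. Animal 20275 gave the lowest value at all 3 time points and made the pre- and post-treatment ranges overlap widely, but it too was lower post-treatment, as were 9 of 9 animals. The washout range overlapped both others without this animal as well, its next lowest library having 74.7 CPM (animal 21189). The fitted change was -0.83 (SE 0.17), from -0.32 in animal 23004 to -1.70 in animal 22130. At washout LDHB was higher than post-treatment in 7 of 8 animals (log2 0.69, SE 0.18), animal 23004 being the exception, and washout minus pre-treatment was -0.14 (SE 0.18).

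LDHB had the largest SM change of the 4 members, opposite in sign to its AT change, as was also the smaller SM change of DUSP14. CPM of LDHB in SM were 4.80, 7.67 and 16.7 (lowest, median, highest) pre-treatment, 5.37, 15.5 and 34.0 post-treatment, and 4.89, 12.5 and 27.0 at washout. The ranges overlapped, and the highest post-treatment and washout values both came from animal 20456, which had no pre-treatment SM library in the table. Changes within animals fell apart into values of 1.08 to 1.71 in 4 animals and of -0.22 and -0.38 in animals 19832 and 20275. The fitted post- minus pre-treatment change in SM was 0.77 (SE 0.25), and washout minus post-treatment -0.54 (SE 0.23), with 6 of 7 animals lower.

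Markers of slow fibers varied with LDHB between SM libraries. The medians of their sum did not follow LDHB over the time points, but the animals differed between time points. With animal in the model, the 7 markers tested had a median post- minus pre-treatment log2 change of 0.453 in SM. Over all genes that median was -0.0232, and 0 of the 7 were DE. The sum of 7 slow fiber markers had a median of 6410 CPM pre-treatment (range 67.1 to 10100.0), 5560 CPM post-treatment (479 to 34100.0) and 13400.0 CPM at washout (2780 to 28600.0). The library highest in LDHB, the post-treatment SM library of animal 20456, was also the highest in this sum, and the library lowest in the sum, the pre-treatment SM library of animal 22130 at 67.1 CPM, had the lowest LDHB of all SM libraries, 4.80 CPM. Over the 21 SM libraries, which share animals, log2 LDHB and the log2 sum had an r of 0.64, and of 0.70 after the time point means were removed. MYOZ2, a slow fiber gene on that list, was the second nearest gene to LDHB in SM by r (0.82), after PRKG1 (0.85). From pre- to post-treatment LDHB and the slow sum changed in the same direction in 5 of 6 animals, and in opposite directions in animal 21189 (LDHB 1.08, slow sum -0.54). Sizes were very unequal in animals 22130 (LDHB 1.31, slow sum 5.31), 24849 (LDHB 1.09, slow sum 0.09) and 19832 (LDHB -0.22, slow sum -1.45). The part of fiber type in the SM change of LDHB was not tested.

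FAM131B was the member that had not returned at washout. Its AT values were 9.58, 25.3 and 53.2 CPM (lowest, median, highest) pre-treatment, 2.58, 6.64 and 18.0 CPM post-treatment, and 4.58, 12.9 and 19.0 CPM at washout. The ranges overlapped at every step (SD of log2 CPM within time points 0.797), but each of 9 animals was lower post-treatment, with a fitted change of -1.74 (SE 0.21). The lowest change, -3.39, belonged to animal 20275, the animal with the highest pre-treatment AT level. Washout minus post-treatment was 0.87 (SE 0.22), higher in 8 of 8 animals, and washout minus pre-treatment was -0.87 (SE 0.21), lower in 8 of 8. By these fitted values 50.2% of the log2 change was left at washout, against 6.75% for DUSP14 and 16.9% for LDHB, while RBPMS2 ended above its earlier level.

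In SM, FAM131B was lowest at washout. CPM of FAM131B in SM were 12.3, 21.1 and 45.4 (lowest, median, highest) pre-treatment, 14.1, 21.9 and 31.8 post-treatment, and 10.6, 13.9 and 17.1 at washout. The washout libraries lay close together (SD 2.16 CPM, against 12.8 CPM pre-treatment) and overlapped with the lower part of both other groups. Post- minus pre-treatment was -0.19 (SE 0.18), with 2 of 6 animals higher and 4 lower. Washout minus post-treatment was -0.42 (SE 0.18), lower in 7 of 7 animals, and washout minus pre-treatment -0.61 (SE 0.19), lower in 5 of 6. The direction after treatment stopped was thus downward in SM and upward in AT, but most SM libraries also changed identifier series at this step. Animals 21189 and 24849, with both SM libraries in the last series, changed by -0.40 and -0.03.

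**Figure D1:**
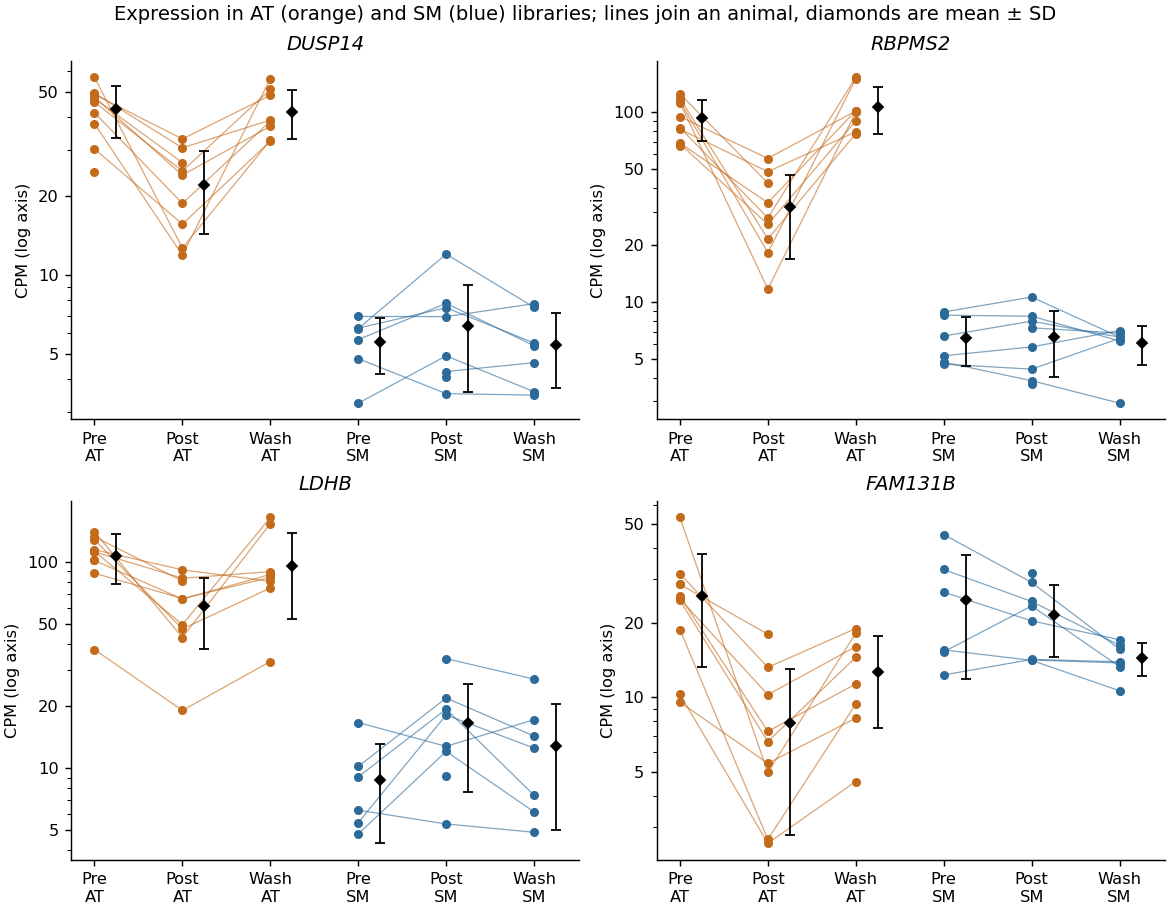
CPM of the 4 genes in each AT (orange) and SM (blue) library, by time point (Pre, Post, Wash), on log axes, with lines joining the libraries of an animal and diamonds at the mean with SD. RBPMS2 in AT separates completely between pre-treatment (lowest 66.3) and post-treatment (highest 57.1), and FAM131B in AT stays below its pre-treatment median at washout (highest 19.0 against 25.3).

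Between the tissues, the fitted difference of the post- minus pre-treatment changes (AT minus SM) was -1.40 for DUSP14 (SE 0.24), -1.75 for RBPMS2 (SE 0.33), -1.66 for LDHB (SE 0.31) and -1.61 for FAM131B (SE 0.30). The members reached similar differences by separate routes. For RBPMS2 nearly all of it lay in AT. For FAM131B the AT change (-1.74) was larger than the difference, with a small SM change of the same sign (-0.19). For LDHB the AT change (-0.83) and the SM change of opposite sign (0.77) were of similar size. In the 5 animals with all 4 libraries, the AT change was the lower one for every member in 5 of 5. The smallest of these within-animal differences were -0.26 for DUSP14, in animal 23004, and -0.60 for LDHB, in animal 20275, while those nearest to 0 were -0.895 for RBPMS2 and -1.02 for FAM131B. The members did not order the animals alike, since the AT change was largest in animal 22130 for DUSP14 (-2.15) and LDHB and in animal 20275 for RBPMS2 and FAM131B.

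**Figure D2:**
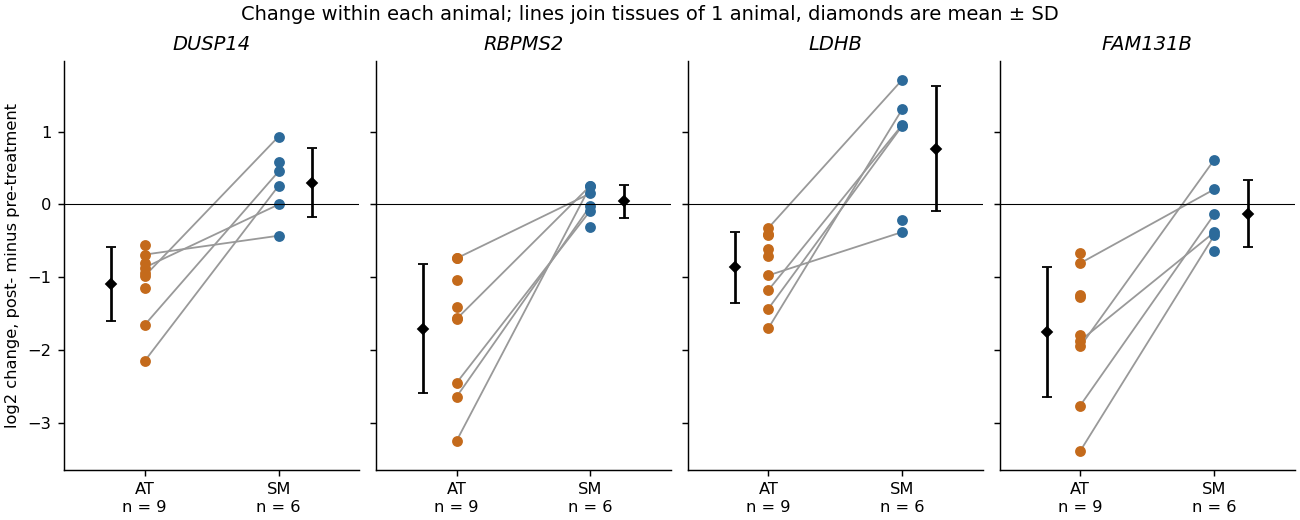
Log2 change from pre- to post-treatment within each animal in AT (9 animals) and SM (6 animals), with lines joining both tissues of the 5 animals measured in both and diamonds at the mean with SD. All AT points lie below 0, SM points of RBPMS2 stay between -0.32 and 0.26, and 4 of 6 SM points of LDHB lie above 1.

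In AT, 6 animals had both libraries in the last identifier series, and all 6 were lower post-treatment for each member, with mean log2 changes of -1.03 (DUSP14), -1.74 (RBPMS2), -0.84 (LDHB) and -1.88 (FAM131B). The 2 animals within the middle series were lower as well. Among the members themselves, log2 CPM over the 27 AT libraries were most alike for DUSP14 and RBPMS2 (r 0.82), which was 0.49 once time point means were removed. RBPMS2 and LDHB had an r of 0.69, and 0.63 within time points, and FAM131B had the weakest likeness to LDHB (r 0.28). These libraries share animals and the time points that chose the members.

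Cell type markers in AT moved over the same time points. The summed macrophage markers had a median of 1260 CPM pre-treatment (range 571 to 2260), 2470 CPM post-treatment (887 to 5140) and 631 CPM at washout (357 to 2230), and 2 of 8 were differentially expressed (DE: adjusted p under 0.05 and log2 fold change beyond 0.26) and higher post-treatment in edgeR. The 8 fibroblast and progenitor markers summed to 23600 CPM at the median pre-treatment (15900 to 37600) and 38000.0 CPM post-treatment (21300 to 55400), with 2 of 8 DE and higher. At washout their median was 22400 CPM (13400 to 46100). The 4 measured adipocyte markers had medians of 18100 CPM pre-treatment (15600 to 32400) and 16500 CPM post-treatment (9440 to 28000), with 2 of 4 DE and lower. At washout the adipocyte median was 15600 CPM (10200 to 29700), so it had not risen again. Of all genes tested in AT, 6.53% were DE and higher post-treatment and 8.0% DE and lower. Among the members RBPMS2 had the strongest relation to the macrophage and fibroblast sums. Its r with the macrophage sum was -0.71 over 27 AT libraries and -0.55 within time points. With the adipocyte sum FAM131B had the strongest r over these libraries (0.525, against 0.361 for RBPMS2). Within time points the order was reversed, with 0.551 for RBPMS2 and 0.455 for FAM131B. The part of these cell types in the AT changes of the members was not tested.

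The members were chosen on pre- and post-treatment, and the washout libraries entered that model only through its animal terms and dispersions, so that the level in AT against SM at washout, tested here with CPM scaled over both tissues, is not the contrast that chose them. For all 4 genes the means and SD are over all washout libraries, whereas log2 differences, SE and adjusted p come from the 5 animals with both. DUSP14 had 32.8 ± 7.09 CPM in AT (SD, n = 8) and 7.61 ± 2.38 CPM in SM (SD, n = 7), with a log2 difference of 1.99 (SE 0.22, edgeR adjusted p = 0.000258). RBPMS2 had 83.5 ± 23.8 CPM in AT and 8.59 ± 2.03 CPM in SM, a log2 difference of 3.13 (SE 0.23, edgeR adjusted p = 5.61e-05). For both genes every AT library lay above every SM library, as for 25.9% of all 12322 genes tested in both tissues, and the difference was positive in 5 of 5 animals with both libraries.

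LDHB had 75.2 ± 34.5 CPM in AT and 18.0 ± 10.9 CPM in SM at washout, a log2 difference of 2.16 (SE 0.51, edgeR adjusted p = 0.0079). Its ranges overlapped, and in animal 20275, low in AT and among the higher ones in SM, the difference was only 0.09, against 3.83 in the animal with the largest. FAM131B was the member with less RNA in AT, 9.87 ± 3.92 CPM against 20.2 ± 2.94 CPM in SM. Its log2 difference was -1.39 (SE 0.26, edgeR adjusted p = 0.00294), negative in 5 of 5 animals, and -1.08 over all washout libraries without the animal term. Every SM library lay above every AT library for FAM131B, as for 23.1% of genes. Of all 12322 genes, 70.3% differed between the tissues at washout, 37.1% higher in AT and 33.1% higher in SM, so a tissue difference as such was common. Scaling mattered here: with library size alone the median over all genes moved from 0.10 to 1.09, and FAM131B from -1.39 to -0.39 (edgeR adjusted p = 0.192), although relative to that median it was -1.48 and -1.49.

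**Figure D3:**
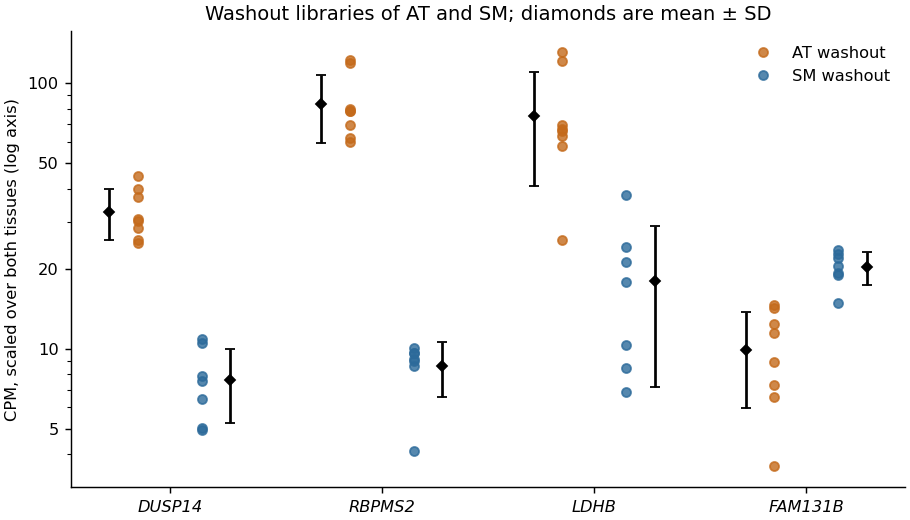
CPM of the 4 genes, scaled over both tissues, in the washout libraries of AT (8, orange) and SM (7, blue) on a log axis, with diamonds at the mean with SD. DUSP14 and RBPMS2 lie higher in all AT libraries, LDHB overlaps through 1 AT library at 25.7 CPM, and FAM131B lies lower in AT, by a narrow gap (highest AT 14.6, lowest SM 14.8).

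On that common scale the order of the 6 groups differed by gene. For DUSP14, RBPMS2 and LDHB all 3 AT groups ranked above all 3 SM groups, and the post-treatment AT mean (17.0, 24.6 and 46.9 CPM) was nearest to SM. Neighbouring groups within SM were separated by less than 1 SD for each of these genes, as were pre-treatment and washout in AT and, for LDHB, washout and post-treatment in AT. FAM131B had the reverse order: its SM groups ranked first (33.0 CPM pre-treatment, 29.5 post-treatment and 20.2 at washout), followed by AT pre-treatment (20.04 ± 9.59), washout (9.87 ± 3.92) and post-treatment (6.11 ± 3.99). Neighbours in this order lay within 1 SD of each other except AT pre-treatment and AT washout (1.06 SD). With library size alone the FAM131B means were 24.7 CPM in AT and 24.5 CPM in SM pre-treatment, so its order of tissues before treatment depends on the scaling.

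Genes of the members' pathways were counted from lists of 107 genes. Of 97 list genes tested in AT, 19 were DE post-treatment against pre-treatment, 7 higher and 12 lower, in comparison with 14.5% of all genes tested (6.53% higher and 8.0% lower). Without the pre-treatment AT library of animal 20275 the count was 11, while DE genes over all tested in AT fell from 1943 to 1000. These numbered 877 without animal 20275, 665 without 22130 and 2081 without 23004. Calls lost from the lists below when an animal is left out are to be read beside these numbers. In SM 0 of 97 were DE (4 with an unadjusted p under 0.05), as were 0 of all 12617 genes in edgeR (323 with an unadjusted p under 0.05, 2.56%), and DESeq2 and limma also called 0. The 95 list genes tested in both tissues gave 0 whose change differed between AT and SM in edgeR (15 with an unadjusted p under 0.05), 0 in limma and 1 in DESeq2. The share of all genes with an unadjusted p under 0.05 was not computed for this difference, so the 15 cannot be judged against it.

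MAP kinase phosphatases moved in mixed directions in AT. Of 9 tested, 2 rose and 1 fell, with a list median of 0.32 against 0.03 over all genes, and the count was 2 to 5 as animals were left out (5 without 20456). DUSP10, a phosphatase of p38 and JNK, fell by 0.997 (log2 scale, SE 0.21, edgeR adjusted p = 0.00703), from 19.1 ± 6.65 to 10.1 ± 4.39 CPM, and was back at 18.0 ± 5.73 CPM at washout, a course like that of DUSP14. DUSP16, which acts on JNK, rose (log2 0.41, SE 0.09, edgeR adjusted p = 0.0115), as did DUSP6, the ERK phosphatase (log2 0.37, SE 0.12, edgeR adjusted p = 0.0458).

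The list of small atypical dual-specificity phosphatases, the group to which DUSP14 belongs, had 2 of 14 DE. It also held SSH1 and SSH3, slingshot phosphatases of another group, neither of them DE. DUSP3 fell (log2 -0.45, SE 0.13) and DUSP11 rose (log2 0.37, SE 0.12), and the list median was -0.06. The count was 0 without the pre-treatment AT library of animal 20275 and 0 without animal 20275, 21866, 22130 or 26292, and 1 without 20261, 20456 or 21189. Among 15 genes of the MAP kinases and the TAK1 complex only TAB3, a TAK1-binding subunit, was DE (log2 -0.35, SE 0.11; 0 were without animal 20275, 21866, 22130, 24849 or 26292, or without the pre-treatment AT library of animal 20275), with TAK1 itself (MAP3K7) at 0.12 (SE 0.08) and TAB1 at 0.24 (SE 0.10).

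Smooth muscle genes, where RBPMS2 is known to act, had 2 of 11 DE and lower post-treatment in AT. They were SYNPO2, an actin-binding protein (log2 -0.72, SE 0.21, 69.5 ± 14.9 to 42.8 ± 14.3 CPM), and MYLK, the myosin light chain kinase (log2 -0.53, SE 0.17), with a list median of -0.46. Both calls were lost (0 of 11) without the pre-treatment AT library of animal 20275 and without animal 20275, 22130 or 26292, and 1 was left without 21189 or 24849. From post-treatment to washout 7 of 11 were DE and higher, against 16.6% of all genes. ACTA2 (log2 -0.19, SE 0.38) and MYH11 (log2 -0.13, SE 0.51), contractile markers of that cell type, were not DE post-treatment. RBPMS, the paralog of RBPMS2, had a log2 change of -0.38 (SE 0.15, edgeR adjusted p = 0.0914), with 8 of 9 animals lower. Of 21 BMP pathway genes 2 were DE: SMAD6, an inhibitor of BMP signaling, fell (log2 -0.43, SE 0.14), SMAD4, the shared mediator, rose (log2 0.27, SE 0.07), and the median was 0.05. The BMP count was 0 without animal 21189 or 21866 and 1 without 20261, 20275, 22130, 24849 or 26292.

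Among genes of lactate and pyruvate metabolism 8 of 24 were DE in AT, 6 lower and 2 higher, with a list median of -0.32, and 5 were DE without animal 22130. LDHA fell by 0.32 on the log2 scale (SE 0.10, edgeR adjusted p = 0.0385), from 623 ± 89.0 to 504 ± 66.1 CPM, and was at 501 ± 96.0 CPM at washout. Of the pyruvate dehydrogenase complex, which feeds pyruvate into the TCA cycle, 4 subunits fell: PDHX (log2 -0.77, SE 0.16), DLAT (log2 -0.54, SE 0.13), PDHA1 (log2 -0.49, SE 0.12) and PDHB (log2 -0.38, SE 0.10). The shared subunit DLD was not DE (log2 -0.32, SE 0.12, edgeR adjusted p = 0.0666). Of its regulators, the inhibitory kinase PDK4 rose from 231 ± 89.8 to 469 ± 132 CPM (log2 1.12, SE 0.19, edgeR adjusted p = 0.00307), the activating phosphatase PDP1 rose (log2 0.31, SE 0.10) and the kinase PDK3 fell (log2 -0.61, SE 0.13). The monocarboxylate transporter SLC16A1, which carries lactate, had a log2 change of -0.08 (SE 0.13).

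PDK3 was the list gene with the lowest adjusted p for the tissue difference, at -1.14 (SE 0.28, edgeR adjusted p = 0.116), with log2 -0.61 in AT and 0.47 (SE 0.28) in SM. It was the 1 list gene that DESeq2 called, and likewise the 1 called with identifier series as a covariate. The log2 ratio of LDHB to LDHA counts, which is not corrected for gene length and is given only for its course, was -2.60 ± 0.49 pre-treatment, -3.16 ± 0.76 post-treatment and -2.50 ± 0.70 at washout in AT (SD over 10, 9 and 8 libraries). In SM it was -8.76 ± 0.94, -7.52 ± 1.23 and -7.88 ± 1.02 (SD over 6, 8 and 7 libraries). These differences between time points were of about the size of the spread between animals. The means ignore the pairing by animal, and changes of the ratio within animals were not computed.

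**Figure D4:**
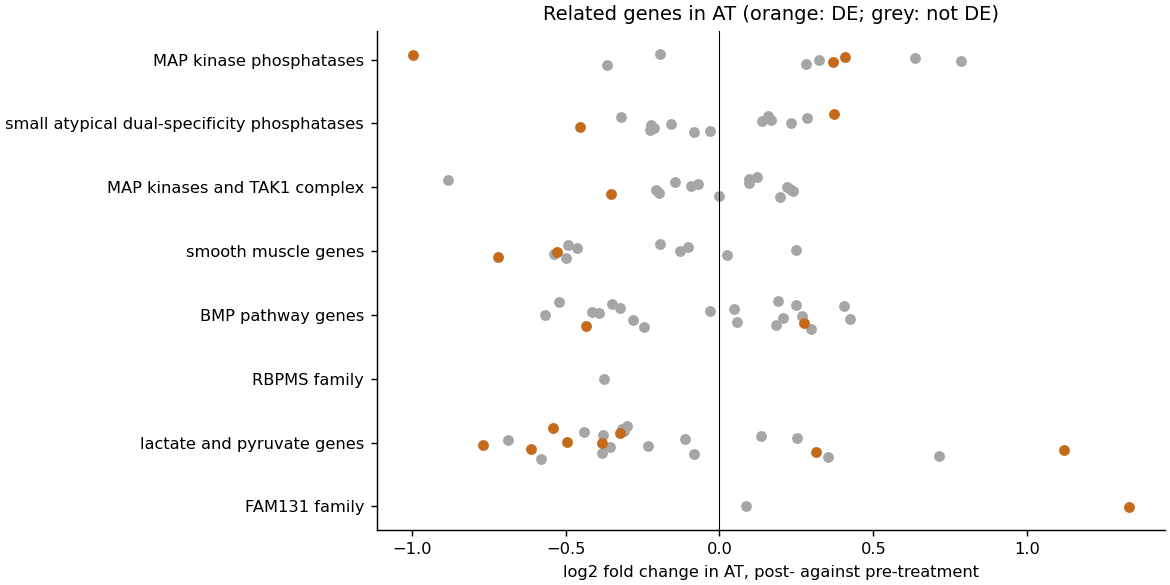
Log2 fold change in AT from pre- to post-treatment of 97 genes of the members' pathways, 1 point per gene and 1 row per list, with DE genes in orange and others in grey. The lactate and pyruvate row holds 6 of the 12 genes that fell, and FAM131C (1.33) and PDK4 (1.12) lie farthest to the right.

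FAM131B differed from both of its paralogs in AT. FAM131C rose (log2 1.33, SE 0.35, edgeR adjusted p = 0.0207), though at a low level of 1.02 ± 0.73 CPM pre-treatment and 2.23 ± 1.38 CPM post-treatment, and 2 of 9 animals were lower. It was not DE without animal 21866. FAM131A had a log2 change of 0.09 (SE 0.12).

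The genes whose log2 CPM were most like each member's were sought among 12141 genes in AT and 11144 in SM with a mean of at least 1 CPM, over 27 and 21 libraries that share animals and, in AT, the time points that chose the members. DUSP14 in AT was closest to SHROOM2 (r 0.89), METTL7B (0.89) and ELOVL3, a fatty acid elongase (0.88), and RBPMS2 to SLC38A3, an amino acid transporter (0.95), CKMT1B, a mitochondrial creatine kinase (0.94), and THRSP, a lipogenic protein (0.94). LDHB in AT was closest to PTGDS (r 0.88), CYB5A (0.88) and GGCT (0.84), and FAM131B to PRKAA2, a catalytic subunit of AMPK (0.85), CLCN1 (0.83) and TENM4 (0.81). Each of these AT genes was lower post-treatment, with fitted log2 changes from -0.41 (CYB5A) to -3.17 (SLC38A3).

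In SM the nearest genes were others. DUSP14 was closest to SLC31A1 (r 0.83), RASGRF2 (0.83) and ANKRD1 (0.82), RBPMS2 to HYKK (0.75), GPC3 (0.74) and CCDC77 (0.72), LDHB to PRKG1, MYOZ2 and USP54 (0.79), and FAM131B to FNBP4 (0.86), SRSF4 (0.85) and THYN1 (0.84). No gene was among the nearest 3 of a member in both tissues.

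CLCN1, the chloride channel of skeletal muscle, is also the protein-coding neighbour of FAM131B in the RefSeq gene order of the macaque assembly T2T-MMU8v2.0. In AT it fell post-treatment in 9 of 9 animals, from 6.92 ± 3.45 to 2.27 ± 1.69 CPM (log2 -1.77, SE 0.28, edgeR adjusted p = 0.00167), and stood at 6.40 ± 4.40 CPM at washout. In SM, where its level was far higher, CLCN1 had 98.2 ± 24.8 CPM pre-treatment and 94.0 ± 44.7 CPM post-treatment (log2 -0.10, SE 0.25), and its r with FAM131B over 21 libraries was 0.39. How reads were counted on neighbouring genes is not given in the sources used here, so whether reads of the 1 gene were counted on the other was not tested. ZYX, the neighbour on the other side, had a log2 change in AT of -0.08 (SE 0.11). Among the neighbours of the other members that were tested in AT, none was DE: TADA2A had -0.23 (SE 0.08) and DDX52 0.11 (SE 0.07) beside DUSP14, PIF1 -0.68 (SE 0.35) beside RBPMS2, and KCNJ8 -0.07 (SE 0.18) and GYS2 0.16 (SE 0.78) beside LDHB.

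**Figure D5:**
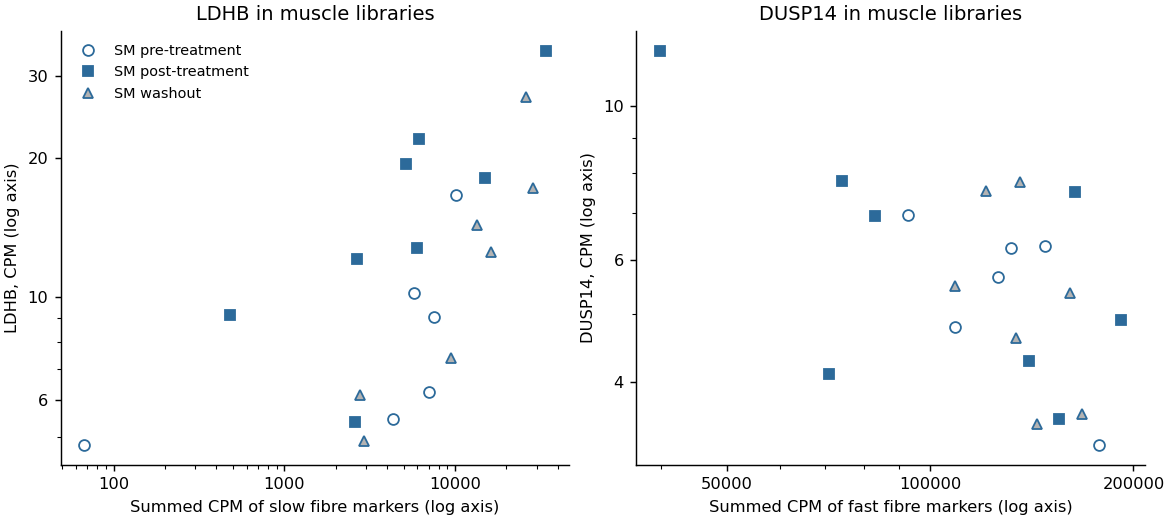
Left, LDHB against the summed CPM of 7 slow fiber markers in 21 SM libraries, and right, DUSP14 against the sum of 9 fast fiber markers, on log axes, with a symbol for each time point. LDHB is highest (34.0 CPM) where the slow sum is highest (34100.0 CPM), and DUSP14 is highest (12.01 CPM) where the fast sum is lowest (39800.0 CPM).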

How the data were processed

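Stranded mRNA libraries were sequenced by the authors, who used STAR with the MacaM macaque genome and deposited raw read counts per gene for 48 libraries. The counting tool is not given in the sources used here. Of 51 labelled samples, 3 SM samples without counts were not analysed here, and 70 of 16103 entries, repeats with identical counts, were dropped.

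A gene was tested in a tissue if it reached 0.5 CPM in 10% or more of its libraries (13367 genes in AT, 12617 in SM, 12322 in both). TMM normalization, log2 CPM (prior count 2) and two-sided robust quasi-likelihood tests came from edgeR 4.0.16 under R 4.3.3. The models held time point and animal within a tissue, a tissue by time point interaction over both, and tissue and animal at washout. The washout model used only the 5 animals with both washout libraries. P values were adjusted by Benjamini-Hochberg across every gene in the test. DE means adjusted p under 0.05 and log2 fold change above 0.26 or below -0.26, without the fold limit between tissues. Other steps ran in Python 3.11.15 with pandas 2.3.3.

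The members and lists were chosen with earlier results of these data known. Named genes were the members, the genes next to the threshold, list genes called or closest in family, and the 3 genes nearest to each member by r in each tissue. Neighbours in gene order and other uncalled genes were named after their values were seen. The fits were tested on simulated data. The animal block follows the labels, and libraries of 1 animal deviated together (median r 0.352 over 25 pairs in AT and 0.278 over 19 in SM, against -0.0354 and -0.0465 between animals).

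Alternatives were limma 3.58.1 (voomWithQualityWeights), DESeq2 1.42.0, other scalings and filters, no animal term, 2 time points alone, the identifier series as a covariate, and each animal left out. The fit without the post-treatment SM library of animal 21189 was added after seeing the data.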

Additional observations from a re-analysis of the deposited data

Results flagged for a closer look

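Over 24 groups of libraries (4 genes in 6 groups), the gap of the most extreme library to its nearest neighbour was compared with the range of the group, a comparison that chance passes in about 1 in 20 groups. It was passed 3 times. RBPMS2 in SM at washout was lowest in animal 19832, at 2.94 CPM, where the next library had 6.25 CPM. LDHB in AT was lowest in animal 20275 both pre-treatment, at 37.6 CPM (next library 88.2 CPM), and post-treatment, at 19.1 CPM (next library 43.0 CPM). The same animal had 32.9 CPM of LDHB in AT at washout, again the lowest. In SM it was not low: its 16.7 CPM pre-treatment was the highest of 6 libraries, and it had 12.8 CPM post-treatment and 17.2 CPM at washout. In pre-treatment AT of this animal, DUSP14 (45.6 CPM) lay near the group median, RBPMS2 (112 CPM) above it, and FAM131B (53.2 CPM) was the highest of 10 libraries. The cause was not tested.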

How the results depend on the processing

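Of 315 alternative values, 306 kept their direction and side of the threshold or moved by less than the spread between animals. Without the replicate block (animal), list genes DE in AT numbered 15, down from 19. The washout differences, then over all washout libraries, were 2.06 (DUSP14), 3.23 (RBPMS2), 2.02 (LDHB) and -1.08 (FAM131B), and the call of each was kept. The count of list genes DE in AT, 19, was 11 without the pre-treatment AT library of animal 20275, 9 to 19 when animals were left out in turn (9 without animal 22130, 10 without 26292, 11 without 20275 or 21866, 12 without 21189), and 13 to 24 under other models. DE genes over all tested in AT fell too, from 1943 to 1000 without that library and to 665 without animal 22130. List genes whose change differed between tissues numbered 0, and 1 with DESeq2 and 1 with the identifier series as a covariate. FAM131B at washout was -0.394 (AT minus SM, log2) with library size alone and -1.57 to -1.14 when animals were left out, and its edgeR or other adjusted p lay between 2.25e-06 and 0.192; for LDHB the adjusted p lay between 7.79e-06 and 0.032, for DUSP14 between 2.07e-14 and 0.00171, and for RBPMS2 between 7.32e-34 and 0.000596. The difference that chose the members was called for 5 genes (4 members), for 75 with DESeq2 and 46 with the series covariate (4 members each), 24 with limma (2 members), 1 without the replicate block (0 members), 0 with library size alone or 1 animal term for both tissues, and 0 to 7 (0 to 4 members) when animals were left out. Changes from pre-treatment in SM rest on 6 animals, and genes of a few CPM there on as few as 43 counts.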
